A study of Homo sapiens with 5 samples.

Results

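The genes described here fold, inspect and discard proteins in the endoplasmic reticulum (ER), or sense when that work fails. They were chosen as a list of 41 symbols, matched through RefSeq accessions to a table of RNA levels and set beside every ChIP-seq peak within 20 kb. All 41 had a value, out of 22889 genes with a symbol and no failed estimate, and 40 reached 1 FPKM (fragments per kilobase of transcript, scaled to the library total) in either RNA library. DERL3 did not: its control value was 0.907 FPKM and its value after LSD1 siRNA 0.542 FPKM.

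The study asked what the lysine demethylase LSD1, encoded by KDM1A, does in androgen signalling. It used LNCaP and VCaP, 2 established human prostate cancer cell lines. For RNA, LNCaP cells received either control siRNA or siRNA targeting LSD1, 1 library each. For ChIP-seq, 3 peak lists give LSD1 in each line and, in LNCaP, H3T6ph, the phosphorylated threonine 6 of histone H3. The cells, at passage 14 to 17, spent 3 days in steroid-depleted (charcoal-stripped) serum ahead of a hormone stimulus that the labels do not name. Nor do the labels say whether the libraries were taken before or after that stimulus. With 1 sample in every group there is no replicate error to set beside a difference and no test across replicates. In bulk RNA, fewer cells of a kind and less RNA in each cell cannot be told apart.

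Secreted and membrane proteins enter the ER through the SEC61 channel, are folded by chaperones, lectins and disulfide isomerases, and are sent back to the cytosol for degradation when folding fails. The membrane sensors ATF6, IRE1 (ERN1) and PERK (EIF2AK3) respond to unfolded proteins. IRE1 removes a short intron from XBP1 RNA, PERK favours translation of ATF4, and ATF6 is cut to release a transcription factor. Prostate luminal cells secrete large amounts of protein, and the IRE1 and XBP1 branch is known to be responsive to androgen in prostate cancer cells.

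KDM1A fell from 37.0 to 6.87 FPKM, 18.6% of control. All 10 luminal prostate markers checked were above 1 FPKM, with KLK3 highest at 2474 FPKM with control siRNA. The 3 basal markers checked, KRT5, KRT14 and TP63, were all under 1 FPKM. Summed FPKM of the luminal markers was 5428 with control siRNA and 4226 with LSD1 siRNA, and the part of this difference in the values below was not tested. Steps between the low values of olfactory receptor genes gave an estimated 32.75 fragments per kilobase for each FPKM in the control library and 25.25 in the LSD1 siRNA library. For 1 kb of transcript the counting error of a log2 fold change was then 0.11 for ATF6, 0.12 for PPP1R15A and 0.03 for HSPA5, and the spread between cultures is unknown.

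In LNCaP the ER genes ranged over nearly 3 orders of magnitude, and most were abundant. With control siRNA the median of the 40 measured genes was 49.6 FPKM, against 13.2 FPKM over all 11753 protein-coding genes at 1 FPKM or more. CALR, which encodes the calcium-binding lectin chaperone calreticulin, was highest at 651 FPKM. HSP90B1, the ER form of HSP90, followed at 446 FPKM and ATF4 at 305 FPKM. The lowest after DERL3 were CHAC1, a glutathione-degrading enzyme gene of the ATF4 program, at 6.97 FPKM, and PPP1R15A, the stress-induced phosphatase subunit GADD34, at 8.42 FPKM. The 3 sensor genes were low per length beside most chaperones, at 13.0 FPKM for ATF6, 14.0 FPKM for EIF2AK3 and 18.4 FPKM for ERN1.

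**Figure D1:**
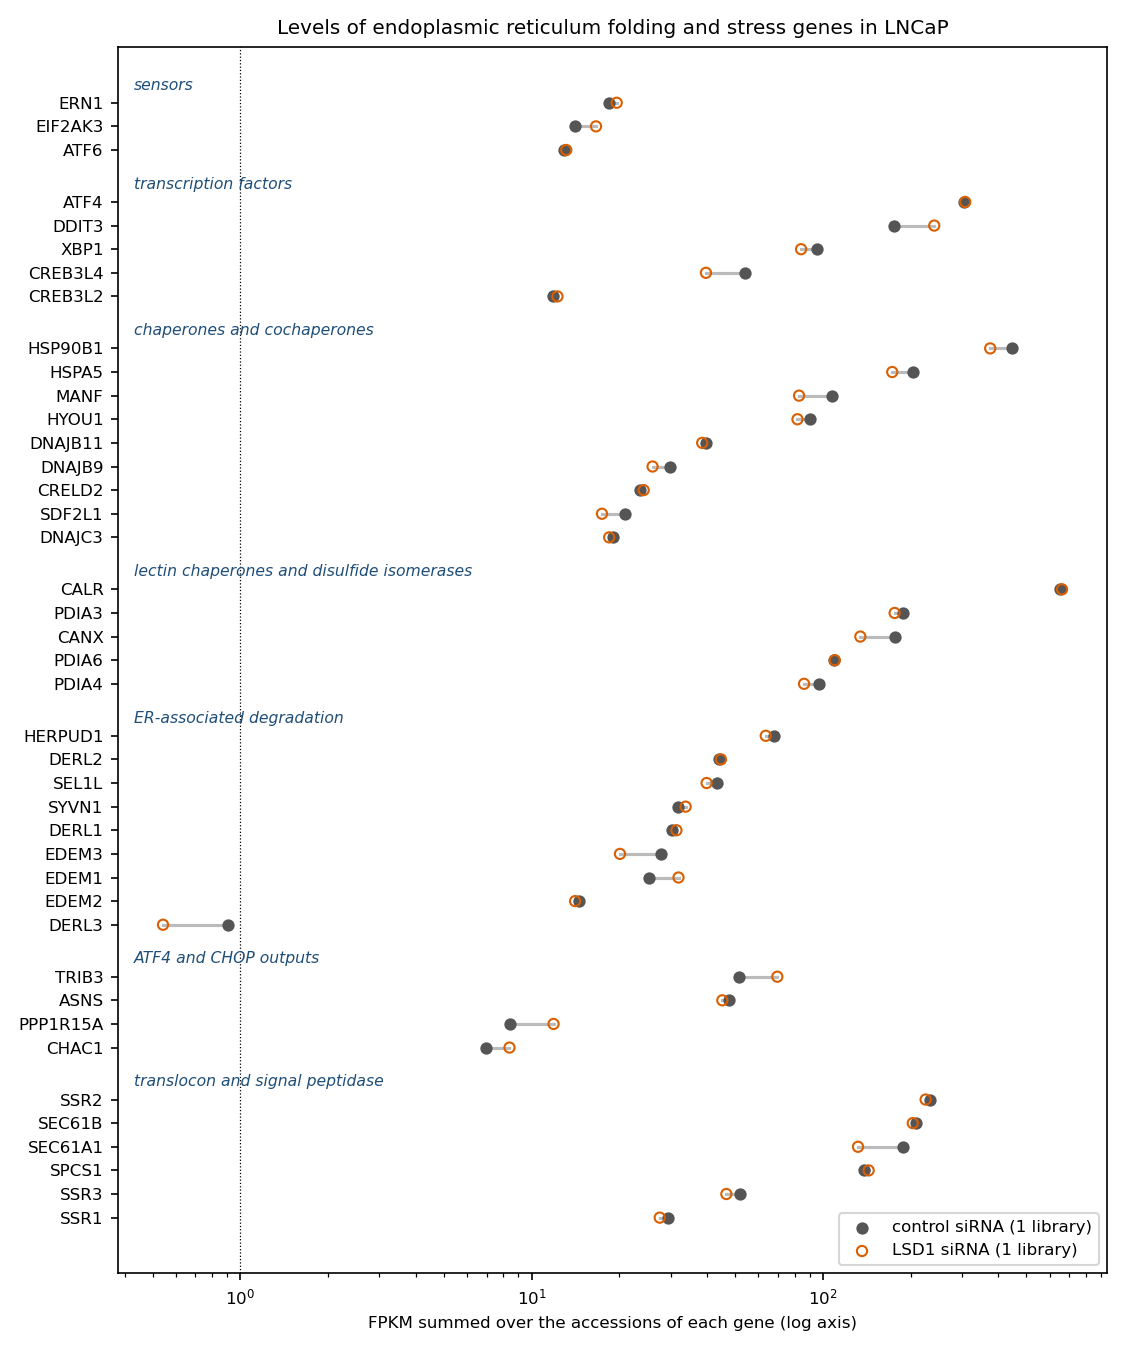
FPKM of the 41 genes, on a log axis, by role, with filled points for the control siRNA library and open points for the LSD1 siRNA library (1 library each). The largest gaps belong to low DERL3 and to SEC61A1, EDEM3, CREB3L4, DDIT3 and PPP1R15A, while CALR, ATF4 and PDIA6 have nearly the same value in both libraries.

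After LSD1 siRNA no gene of the list passed a 1.5-fold difference on the log2(FPKM + 1) scale, where 2.22% of protein-coding genes did (1.04% higher and 1.18% lower). At 2-fold the share was 0.238%. Of the 40 measured genes 17 had a higher value and 23 a lower one. Their median log2 fold change was -0.04, against -0.01 over all protein-coding genes, 52.9% of which were lower. At a smaller size, a log2 fold change of 0.32 in either direction, 4 genes were higher and 5 lower. Those 9 are 22.5% of the list, beside 12.7% of protein-coding genes (5.68% higher and 7.01% lower). The higher ones were DDIT3, PPP1R15A, TRIB3 and EDEM1, and the lower ones SEC61A1, EDEM3, CREB3L4, CANX and MANF. In the authors' deposited table none of the 64 accessions of these genes that the authors tested was called, the lowest q being 0.578, and 4 had an unadjusted p under 0.05. Over all accessions tested, the authors' deposited table calls 0.642%, and 6.35% have an unadjusted p under 0.05.

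**Figure D2:**
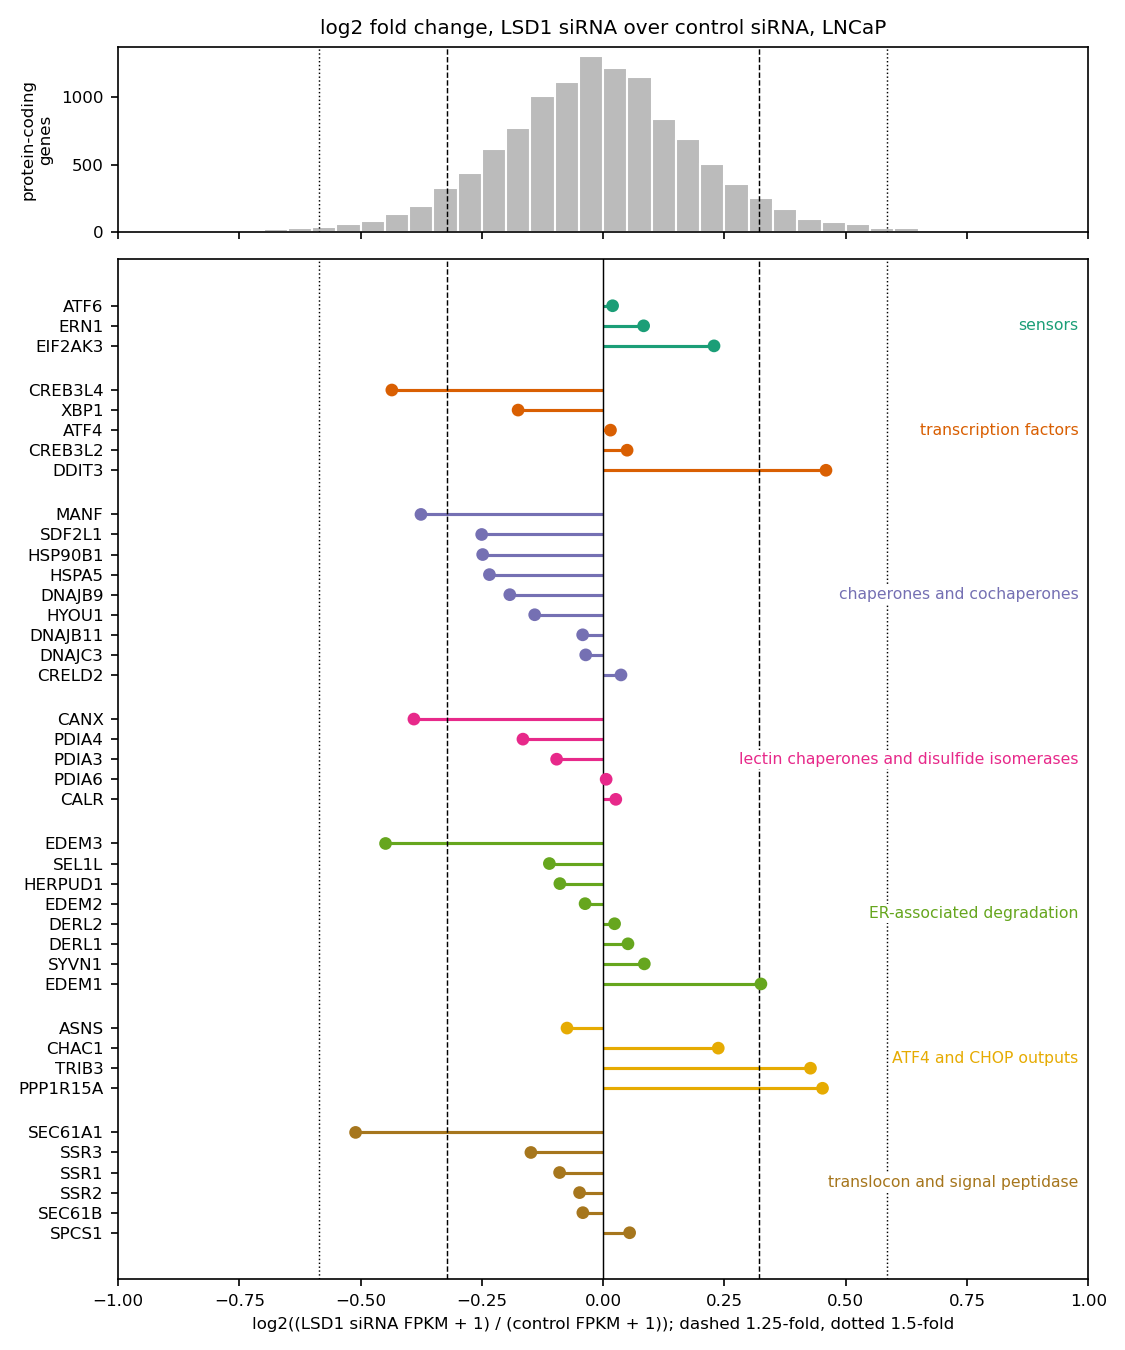
Log2 fold change of each of the 40 measured genes, by role, LSD1 siRNA over control siRNA on the log2(FPKM + 1) scale, below a histogram of all 11753 protein-coding genes (values beyond 1 in either direction are in the end bins). The chaperones lie mostly left of 0 and 3 of the 4 ATF4 and CHOP outputs right of it, and no gene crosses the dotted 1.5-fold lines.

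The sensors differed little. ATF6 was at 13.0 and 13.1 FPKM (log2 0.02) with control and LSD1 siRNA, and ERN1 at 18.4 and 19.6 FPKM (log2 0.08). EIF2AK3 was at 14.0 and 16.6 FPKM (log2 0.23), which is higher in the LSD1 siRNA library but within the smaller size.

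Among the transcription factors, the largest difference was in DDIT3. This gene encodes CHOP, which acts downstream of PERK and ATF4 and can promote cell death. Its level was 175 FPKM in the control library and 241 FPKM after LSD1 siRNA (log2 0.46), and 1.82% of protein-coding genes at 5 FPKM or more were as high or higher in log2 fold change. Its 6 accessions did not all go the same way, from log2 -1.48 for a minor one to 0.58 for the most abundant. The authors' unadjusted p for them ran from 0.437 to 0.969, and DDIT3 shares its interval with MARS1. ATF4 RNA itself was at 305 and 308 FPKM (log2 0.01), nearly equal in both libraries. ATF4 is controlled mainly at translation, so its RNA level is not a readout of its protein. CREB3L4, also named AIbZIP, an ER-anchored factor long known as androgen-responsive in the prostate, was lower after LSD1 siRNA, at 54.0 and 39.7 FPKM (log2 -0.44). Its relative CREB3L2 was at 11.8 and 12.3 FPKM (log2 0.05).

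XBP1 encodes the factor made by IRE1 splicing, and the table lists 2 accessions for it. Which accession is the unspliced and which the spliced form was taken from general knowledge of RefSeq, not from the files, and the values by form rest on that assignment. The unspliced accession (NM_005080) had 57.1 FPKM in the control library and 65.9 FPKM after LSD1 siRNA. For the spliced accession (NM_001079539), which encodes the active factor, the values were 38.1 and 18.2 FPKM. The spliced form therefore made up 40.0% of XBP1 FPKM in the control library and 21.6% in the LSD1 siRNA library, a difference of 18.4 percentage points. The sum of both forms was 95.1 and 84.1 FPKM (log2 -0.17). The unspliced accession alone gave a log2 fold change of 0.20, so the direction for XBP1 depends on which form is taken. Of 2056 protein-coding genes with several accessions and a mean of 20 FPKM or more, 3.21% had a share that moved as far, and of all 5256 with several accessions, at any level from 1 FPKM, 13.9% did. The authors' deposited table gives p = 0.178 and q = 1.00 for the spliced accession. The forms share almost all of their sequence, so the split rests on reads over the short intron, and the number of those reads was not analysed here.

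**Figure D3:**
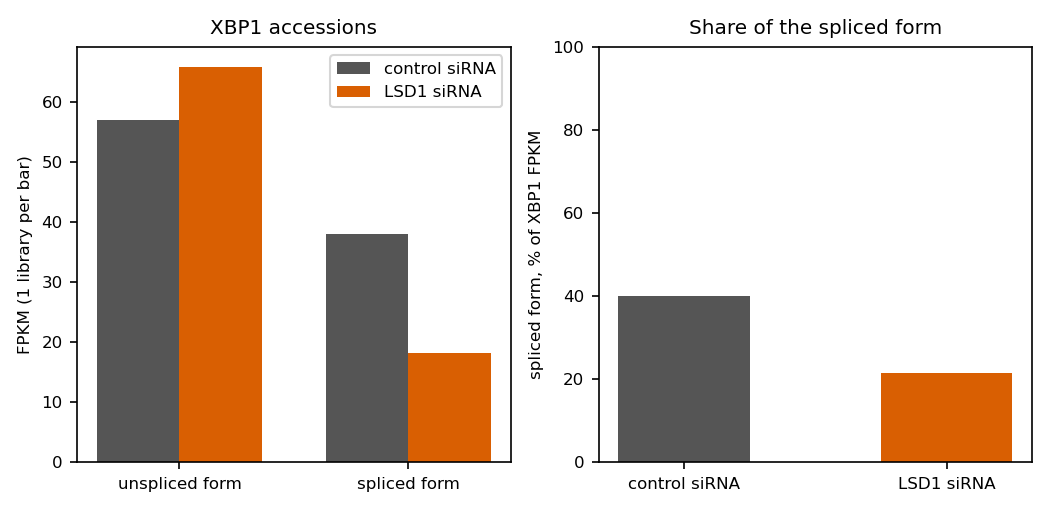
XBP1 in LNCaP: FPKM of the unspliced and spliced accessions (left, 1 library per bar) and the spliced form as a percentage of their sum (right). The spliced share is 40.0% with control siRNA and 21.6% with LSD1 siRNA, while the unspliced form is slightly higher with LSD1 siRNA.

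Of the 9 luminal chaperones and their partners 8 had a lower value and 1 a higher value, beside 52.9% lower among all protein-coding genes. Chaperones outside the ER also had mostly lower values, 15 of 20 in the cytosol and 10 of 11 in mitochondria. The summed level of the 9 ER genes was 981 FPKM in the control library and 838 FPKM after LSD1 siRNA, 85.4% of control. HSPA5, which encodes BiP, the main HSP70 of the ER and the usual marker of ER stress, was at 204 and 173 FPKM (log2 -0.23). HSP90B1 was at 446 and 375 FPKM (log2 -0.25). MANF, a secreted stress-induced protein that binds BiP, had the largest difference, at 108 and 82.8 FPKM (log2 -0.38), and is the only one of the 9 beyond the smaller size. SDF2L1, a partner of BiP cochaperones, was at 20.9 and 17.4 FPKM (log2 -0.25). The J-domain cochaperone genes DNAJB9 (log2 -0.19), DNAJB11 (-0.04) and DNAJC3 (-0.04) and the HSP110-type exchange factor gene HYOU1 (-0.14) were lower by less. CRELD2 was the exception, at 23.6 and 24.2 FPKM (log2 0.04). The median of the 9 was -0.19 against -0.01 for all protein-coding genes, whose SD across genes was 0.23.

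The lectin chaperones and disulfide isomerases had no common direction. CANX, the membrane-bound lectin calnexin, was at 176 and 134 FPKM (log2 -0.39), and both of its accessions were lower. Its soluble counterpart CALR was at 651 and 662 FPKM (log2 0.03). PDIA3, the isomerase that works with both lectins, was at 189 and 176 FPKM (log2 -0.10), PDIA4 at 96.7 and 86.1 FPKM (log2 -0.17) and PDIA6 at 109 and 110 FPKM (log2 0.01).

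Many ER stress genes carry the ER stress response element, ERSE, in their promoters, which ATF6 binds together with NF-Y. It was looked for on both strands as CCAAT, any 9 bases, then CCACG, from 250 bases before to 50 after each gene start in RefSeq (GRCh38.p14). Of the 41 genes 37 had such a window, and 7 of them (18.9%) held the letters, beside 21 of 15843 protein-coding genes (0.133%). The shorter ERSE-II, ATTGG, any 1 base, then CCACG, was in 3 of the 37 genes (8.11%) and in 15 of 15843 (0.0947%). These elements were first defined in promoters of some of these same genes, so the share is no independent result. Of the 8 lower chaperone genes 4 hold a match (HSPA5, HSP90B1, HYOU1 and SDF2L1), and DNAJB9, DNAJB11, DNAJC3 and MANF do not. CRELD2, the 1 chaperone gene with a higher value (log2 0.04), also holds a match, while MANF had the lowest log2 fold change (-0.38). With 1 of the 9 genes higher, and by less than its counting error at 1 kb (0.08), they cannot show whether a match goes with direction. Capitals mark the fixed letters, each sequence is in the direction of the gene, and positions count back from the gene start. CANX has several starts in RefSeq, and its 1 match lies at -151 to -133, -189 to -171 or -9 to 9, across the start, depending on which is taken.
HSPA5 (-66 to -48, chr9:125241391-125241409, minus strand): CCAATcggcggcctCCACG
HSP90B1 (-194 to -176, chr12:103930216-103930234, plus strand): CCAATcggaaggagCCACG
HSP90B1 (-89 to -71, chr12:103930321-103930339, plus strand): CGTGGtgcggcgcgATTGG
PDIA6 (-86 to -68, chr2:10812853-10812871, minus strand): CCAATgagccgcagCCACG
CANX (-151 to -133, chr5:179698778-179698796, plus strand): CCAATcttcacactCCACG
CALR (-225 to -207, chr19:12938384-12938402, plus strand): CGTGGtcgaccatcATTGG
CRELD2 (-80 to -62, chr22:49918554-49918572, plus strand): CGTGGcgaactcggATTGG
XBP1 (-52 to -34, chr22:28800603-28800621, minus strand): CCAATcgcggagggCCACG
HERPUD1, ERSE-II (-117 to -107, chr16:56932025-56932035, plus strand): ATTGGgCCACG
SDF2L1, ERSE-II (-188 to -178, chr22:21642114-21642124, plus strand): CGTGGaCCAAT
HYOU1, ERSE-II (-185 to -175, chr11:119057380-119057390, minus strand): CGTGGtCCAAT
HYOU1, ERSE-II (-79 to -69, chr11:119057274-119057284, minus strand): CGTGGtCCAAT

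HSP90B1 was the one gene with 2 ERSE matches, facing opposite ways. The bases before its start, chr12:103930160-103930409 on the plus strand (GRCh38.p14), are shown with both in capitals.
HSP90B1 promoter: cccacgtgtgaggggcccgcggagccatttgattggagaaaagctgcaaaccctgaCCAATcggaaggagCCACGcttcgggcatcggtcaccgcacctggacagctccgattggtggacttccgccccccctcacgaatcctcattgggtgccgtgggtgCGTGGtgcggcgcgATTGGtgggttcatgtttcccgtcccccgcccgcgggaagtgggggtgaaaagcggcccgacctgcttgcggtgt

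The 10 genes with ERSE or ERSE-II letters had a median log2 fold change of -0.16 after LSD1 siRNA, 7 lower and 3 higher, from -0.39 for CANX to 0.04 for CRELD2. The 27 other genes with a window had a median of -0.04, with 15 lower and 12 higher, from -0.51 to 0.46. The first set was also the more abundant, with a median of 102 FPKM against 39.7 FPKM with control siRNA. The core of the XBP1 element UPRE, TGACGTGG, was in HYOU1, where it overlaps an ERSE-II match, and in SSR3, and in 1.05% of protein-coding genes. The ATF4 element letters TGATGNAAT were in 0 of the 37 genes and in 0.877% of protein-coding genes, which says only that they are not in these windows.

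Genes of ER-associated degradation were divided. EDEM3, one of 3 mannosidase-like proteins that mark misfolded glycoproteins, was at 27.8 and 20.1 FPKM (log2 -0.45). EDEM1, its paralog, went the other way, at 25.3 and 31.9 FPKM (log2 0.33), while EDEM2 was at 14.5 and 14.1 FPKM (log2 -0.04). The ubiquitin ligase gene SYVN1, which encodes HRD1, was at 31.8 and 33.8 FPKM (log2 0.09), but its 2 accessions differed in direction (log2 -0.14 for the more abundant and 0.39 for the other). Its partner SEL1L was at 43.1 and 39.9 FPKM (log2 -0.11). HERPUD1, a stress-induced subunit of the same complex, was at 67.8 and 63.6 FPKM (log2 -0.09). The derlins, candidate channel proteins, were close to equal in both libraries, at 30.3 and 31.4 FPKM for DERL1 and 43.9 and 44.6 FPKM for DERL2.

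Of the 4 outputs of ATF4 and CHOP 3 had a higher value and 1 a lower value, and TRIB3 and PPP1R15A were beyond the smaller size. TRIB3, a pseudokinase that restrains ATF4, was at 51.6 and 69.7 FPKM (log2 0.43). PPP1R15A, which reverses the translation block set by PERK, was at 8.42 and 11.9 FPKM (log2 0.45), and with DDIT3 these are the 3 highest differences of the list. CHAC1 was at 6.97 and 8.39 FPKM (log2 0.24), or log2 0.13 for its most abundant accession alone. ASNS, asparagine synthetase, a standard ATF4 target, did not share the direction, at 47.6 and 45.1 FPKM (log2 -0.07). Its 6 accessions differed in direction, from log2 -1.31 to 0.54, with -0.31 for the most abundant. In the authors' deposited table the unadjusted p was 0.0354 for TRIB3 and 0.0392 for PPP1R15A, with q of 0.682 and 0.714.

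In the translocation machinery SEC61A1, the pore subunit of the SEC61 channel, had the largest difference of all 40 genes, at 188 and 132 FPKM (log2 -0.51). Of protein-coding genes at 5 FPKM or more, 1.87% were as low or lower in log2 fold change. The small SEC61B subunit was at 210 and 203 FPKM (log2 -0.04). The translocon-associated genes SSR1 (log2 -0.09), SSR2 (-0.05) and SSR3 (-0.15) and the signal peptidase gene SPCS1 (0.05) were all within the smaller size. The pore subunit thus stood apart from its own partner and from the accessory subunits. In the authors' deposited table p was 0.0269 for SEC61A1 and 0.0239 for EDEM3, with q of 0.610 and 0.578.

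In wider lists of other ER genes few differences were past 1.5-fold, a size that 2.22% of protein-coding genes passed. They were 1 of 27 genes of oxidative folding, 1 of 27 of translocation and 1 of 24 of transport to the Golgi. The lists of degradation, of the PERK and amino acid response, and of ER-anchored factors held 0. Of 27 measured genes of further translocation and N-glycan transfer, 20 were lower and 7 higher, with a median of -0.09. Among all protein-coding genes 52.9% were lower. SPCS3, the catalytic-core partner in signal peptidase, was at 29.8 and 19.2 FPKM (log2 -0.61), past 1.5-fold, and SEC63, which helps BiP act at the channel, at 41.7 and 32.7 FPKM (log2 -0.34). Of 17 further degradation genes 10 were lower, with UBE2J1, a ubiquitin-conjugating enzyme of the ER membrane, at 20.7 and 13.7 FPKM (log2 -0.56) and VCP, the extracting ATPase, at 149 and 124 FPKM (log2 -0.25). In the list of oxidative folding and glycoprotein quality control 15 of 27 were lower. Its largest differences were in both subunits of glucosidase II, which trims glycans for calnexin and calreticulin. GANAB rose past 1.5-fold, from 112 to 177 FPKM (log2 0.65), and PRKCSH was at 92.7 and 127 FPKM (log2 0.45).

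The list of PERK and amino acid response genes was the wider list with most genes higher, 22 of 32, and a median of 0.06. The other 10 were lower (31.25%), beside 52.9% of all protein-coding genes. The list also holds genes that are not outputs: EIF2S1 (log2 -0.31), EIF2AK2 (-0.20), EIF2AK4 (-0.13), EIF2AK1 (-0.05), ATF6B (-0.004) and PPP1R15B (0.01). In the list 5 genes (15.6%) were higher by a log2 of 0.32 or more and 0 lower, beside 5.68 and 7.01% of protein-coding genes. None passed 1.5-fold. ATF3, a stress-induced factor that works with CHOP, was at 68.7 and 92.7 FPKM (log2 0.43). SLC7A11, the cystine transporter gene, was at 16.2 and 21.8 FPKM (log2 0.41). Of 8 measured ER-anchored factors, site proteases and ERSE-binding partners 7 were lower, beside the same 52.9%. None was beyond a log2 of 0.32, and the largest differences were in the site-2 protease gene MBTPS2 (log2 -0.29) and GTF2I (-0.23).

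**Figure D4:**
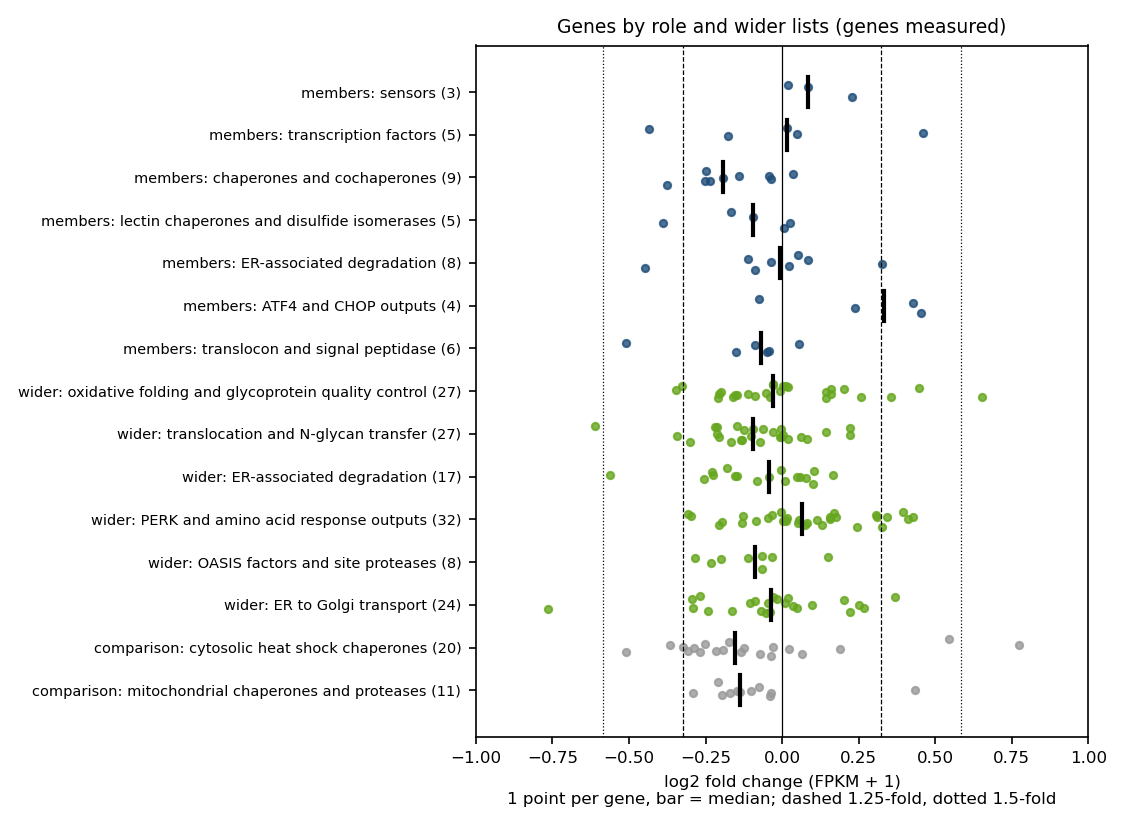
Log2 fold changes (LSD1 siRNA over control siRNA, log2(FPKM + 1) scale) of the listed genes by role (blue), of wider ER lists (green) and of chaperones outside the ER (grey), 1 point per gene, with a bar at the median and the number of genes in brackets. The ATF4 and CHOP outputs have the highest median (0.33) and the ER chaperones the lowest (-0.19).

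The peak lists were then searched within 20 kb of each gene interval (hg19, as in the expression table). An LSD1 peak of LNCaP lay near 14 of the 40 measured genes, 35% with a 95% Wilson interval of 22.1 to 50.5%, where 42.2% of protein-coding genes had one. For LSD1 in VCaP it was 17 genes, 42.5% (28.5 to 57.8%), beside 41.9%. H3T6ph peaks lay near 11 genes, 27.5% (16.1 to 42.8%), beside 18.0%, and DERL3 also had one. These intervals cover counting error only, and at 20 kb all 3 include the share of protein-coding genes. At least 1 peak of any list lay near 25 genes (62.5%, beside 65.7%), and peaks of all 3 lists near 3 (7.5%, beside 7.30%). Within 5 kb the counts were 8, 5 and 12 of 40 genes for LNCaP LSD1, H3T6ph and VCaP LSD1, beside 31.6, 13.0 and 31.7% of protein-coding genes. Inside the interval they were 7, 5 and 10, beside 26.9, 11.0 and 26.6%. At 50 kb they were 21, 17 and 23, beside 58.0, 27.1 and 56.5%, and there the H3T6ph share of 42.5% had an interval of 28.5 to 57.8%, above its background. Within 5 kb and inside the interval the H3T6ph range, 5.46 to 26.1% each, included the background. Several lists and distances were compared with no allowance for their number, and the genes were not drawn at random. An interval that leaves out its background is therefore not read as a result about these genes. The genes are also compact, with a median interval of 17.2 kb against 33.0 kb, and a longer interval can hold more peaks. The expression table gives 8 of the genes an interval shared with another gene (DDIT3 with MARS1, CREB3L4 with JTB, and also HSP90B1, PDIA3, PDIA6, SYVN1, DERL3 and SPCS1), so peaks there may belong to the neighbour.

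Genes with no peak of any list within 20 kb included the chaperone genes HSPA5, HYOU1 and MANF. The more abundant HSP90B1 had peaks of H3T6ph and VCaP LSD1. A peak of some list lay near 62.5% of the measured genes, beside 65.7% of protein-coding genes. For HSPA5 the nearest peaks were 55.2 kb away for LNCaP LSD1, 84.3 kb for VCaP LSD1 and 115 kb for H3T6ph. For HYOU1 all 3 distances were above 110 kb, and for MANF above 107 kb. CALR had LSD1 peaks just beyond the limit, at 20.5 kb in LNCaP and 20.3 kb in VCaP. CREB3L4, one of the 5 lower genes, had no peak of any list within 164 kb.

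SEC61A1 had the most complete set of peaks. All 3 lists met 12.4 kb past its 3′ end on chromosome 3, where the LSD1 peak of LNCaP ran from 127802946 to 127804238 with a score of 125. The H3T6ph peak ran from 127803063 to 127803967 (score 73.8), and the VCaP peak of LSD1 from 127803203 to 127804249 (score 72.1). Scores are the authors' own and rank peaks within 1 list. In the LNCaP LSD1 list 5.48% of peaks scored higher than this one. VCaP LSD1 had another peak 0.098 kb before the 5′ end of SEC61A1, at 127769875 to 127771113 (score 78.7), and a weaker one at 127761780 to 127762309.

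XBP1 had strong peaks on its 5′ side that did not overlap each other. The LNCaP LSD1 peak at 29203591 to 29204324 on chromosome 22 lay 7.03 kb from the 5′ end with a score of 129, the highest of its list near any of these genes, and 4.89% of the list scored higher. The H3T6ph peaks at 29209647 to 29210300 (score 101) and 29215366 to 29215956 (score 89.6) lay 13.1 and 18.8 kb away. A second LSD1 peak of LNCaP lay 9.86 kb past the 3′ end. No VCaP LSD1 peak came within 20 kb, and the nearest was at 21.6 kb.

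**Figure D5:**
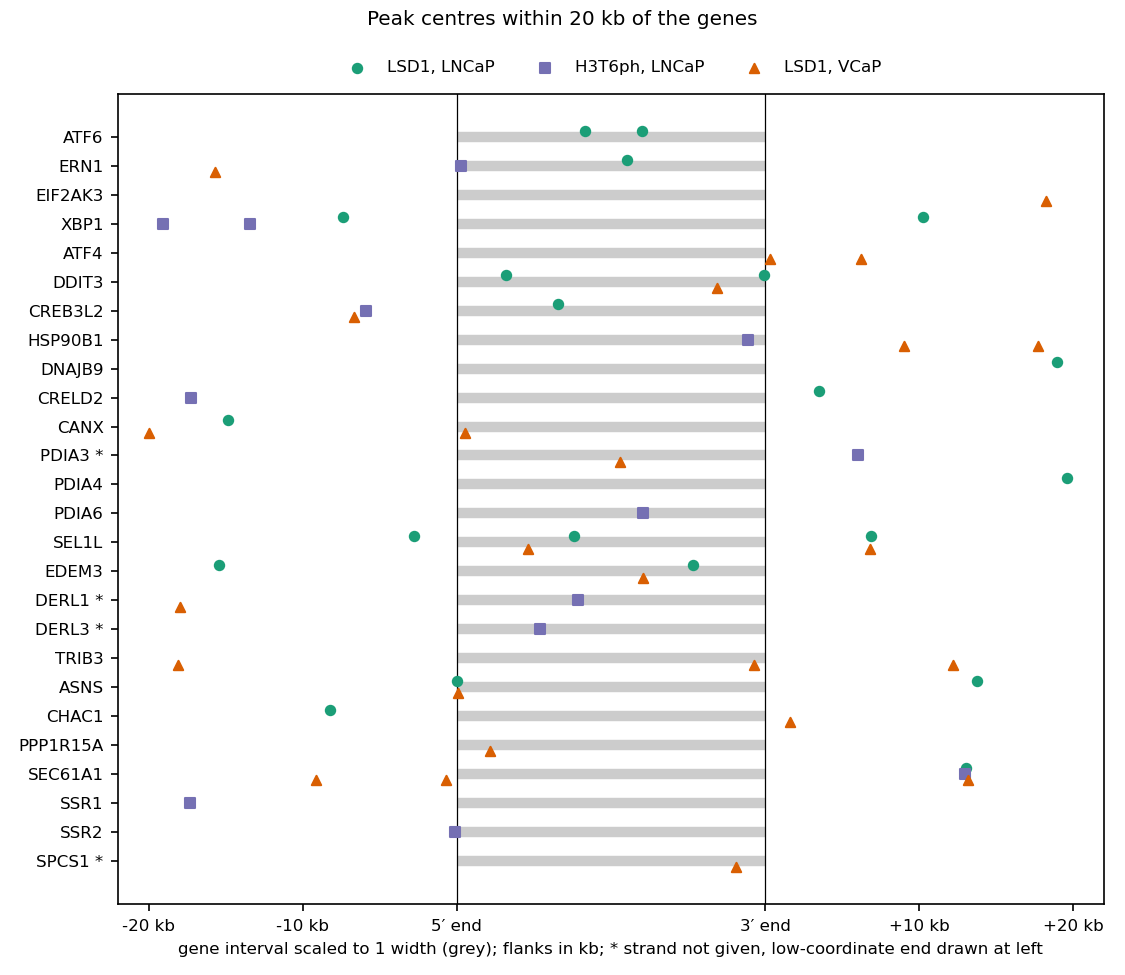
Centres of the peaks within 20 kb of the 26 genes that had one, with each gene interval scaled to 1 width (grey bar), its 5′ end at the left where the strand is known, and flanks in kb. ASNS and SEC61A1 show coinciding marks of 2 and 3 lists, and XBP1 has LSD1 and H3T6ph marks in its flanks only.

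Peaks at gene starts were few. ASNS was the one gene with LSD1 at its 5′ end in both lines, on chromosome 7 at 97501525 to 97502227 in LNCaP (score 87.1) and 97501249 to 97502316 in VCaP (score 66.8), and the first lies wholly within the second. In VCaP alone LSD1 also lay at the 5′ end of PPP1R15A (chromosome 19, 49375222 to 49376863, score 51.3) and 0.352 kb inside that of CANX (chromosome 5, 179126282 to 179127216, score 50.1). Both scores are near the lowest of the list, 50. The VCaP peak 0.098 kb before the 5′ end of SEC61A1, given above, scored higher, at 78.7. H3T6ph lay at the 5′ end of SSR2 (chromosome 1, 155990675 to 155991038, score 50.7) and 0.942 kb inside that of ERN1 (chromosome 17, 62206260 to 62206560, score 92.3). At the other end of the gene VCaP LSD1 had peaks at ATF4 (chromosome 22, 39918583 to 39919412) and TRIB3 (chromosome 20, 377111 to 378065), and H3T6ph at HSP90B1 (chromosome 12, 104340497 to 104340971). An LNCaP LSD1 peak at the low-coordinate end of the DDIT3 interval (chromosome 12, 57881582 to 57882062) lay 32.2 kb from the 5′ end of DDIT3, in the interval shared with MARS1. Within 1 kb of an end the counts were 2 genes for LNCaP LSD1, 3 for H3T6ph and 6 for VCaP LSD1, beside 8.93, 2.33 and 14.2% of protein-coding genes. The H3T6ph share there, 7.5%, had an interval of 2.58 to 19.9%, also above its background, but rests on 3 genes. Of these, SSR2 (score 50.7) and HSP90B1 (score 50.9, in a shared interval) were near the lowest of the H3T6ph list, 50.01. This share is not read as a result either.

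In all, 4 of the 41 genes had a site shared by 2 or more lists: SEC61A1, ASNS, SEL1L and CREB3L2. The share of all protein-coding genes with such a site was not computed, so whether 4 is many or few is unknown. SEL1L had its shared LSD1 site 6.64 kb past its 3′ end, on chromosome 14 at 81930722 to 81931247 in LNCaP and 81930803 to 81931285 in VCaP. CREB3L2 had an H3T6ph peak of LNCaP (chromosome 7, 137692599 to 137692889) inside a VCaP LSD1 peak (137692487 to 137694609, score 83.4, the highest of its list near these genes), 5.75 kb before its 5′ end. Other high-scoring peaks lay in gene bodies, with LNCaP LSD1 in ATF6 (chromosome 1, 161854178 to 161855374, score 113) and EDEM3 (chromosome 1, 184674306 to 184675120, score 103) and H3T6ph in the interval shared by PDIA6 and ATP6V1C2 (chromosome 2, 10897549 to 10898226, score 67.5). LNCaP LSD1 also lay 13.4 kb past the 3′ end of ASNS (97467337 to 97468032, score 87.5). VCaP LSD1 lay 19.1 kb before CANX (179105140 to 179106798, score 73.7) and 8.24 kb past HSP90B1 (104349946 to 104351519, score 70.2).

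Fold changes were set beside the peaks of LNCaP, and whether binding accounts for any difference was not tested. The 14 genes with an LSD1 peak of LNCaP had a median log2 fold change of -0.09, and the 26 without one -0.04. The first group held both the lowest gene, SEC61A1, and the highest, DDIT3, whose interval is shared with MARS1. Over all protein-coding genes the medians were -0.01 with and without a peak. The 11 genes with an H3T6ph peak had a median of -0.05 and the 29 without one -0.04. Of the 9 genes beyond a log2 of 0.32, SEC61A1, EDEM3, CANX and DDIT3 had an LNCaP LSD1 peak within 20 kb, and TRIB3, PPP1R15A, EDEM1, CREB3L4 and MANF had none. Such a peak lay near 35% of the 40 measured genes and 42.2% of protein-coding genes.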

How the data were processed

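For each RefSeq accession the deposited expression table holds FPKM in both RNA libraries and the authors' p-value and q-value. The deposited peak lists carry the authors' score, on a scale that no source here states. Tools in the submitters' processing notes are TopHat2 2.0.4, Bowtie2 2.0.0, Cuffdiff 2.0.1 and MACS2, with build hg19. Control track, peak threshold and library scaling: not given in the sources used here. TruSeq v2 RNA libraries do not mark strand, so overlapping genes cannot be told apart.

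Of 40253 accessions, 38934 were matched to a symbol (RefSeq table, GRCh38.p14), their FPKM was summed per symbol, and 42 genes with a failed accession were left out. Fold changes are log2((LSD1 siRNA + 1)/(control + 1)), which understates low genes, taken where either library reached 1 FPKM. With 1 library per group a gene was called by size, 1.5-fold, with a smaller size (log2 0.32) beside it. Depth was estimated from olfactory receptor genes, by choosing the depth and length correction that brought their values closest to whole fragments. The fitted values were whole within 0.05 for 42 of 42 and 44 of 44 genes, which describes the fit and is no separate check. Distances run from the table's gene interval, and the 5′ end is that given by the strand in RefSeq. Scripts (Python 3.11.15, pandas 2.3.3) were tested on simulated data.

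The members and lists were chosen with earlier results of these data known. All 41 listed genes are named. Of each wider list the 2 largest differences at 5 FPKM or more are named. Peaks are named where shared by 2 lists, within 1 kb of an end, or among the 5 highest-scoring of a list. Chosen after their values were seen were the distances for genes without a peak within 20 kb, and further peaks of XBP1 and SEC61A1. Protein C-termini, planned as a further feature, were not analysed here.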

Additional observations from a re-analysis of the deposited data

How the results depend on the processing

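No paired analysis was possible because each group held 1 library. Among the listed genes that reached the minimum level, none passed 1.5-fold with a pseudocount of 0.1 or 5. The same held with no filter, with the highest accession alone and under both rescalings. A filter of 5 FPKM, failed accessions kept and a 2-fold size could not change this, since none of these genes had a failed accession. DERL3, under 1 FPKM, was at -0.65 with a pseudocount of 0.1. At a log2 size of 0.32 the counts were 4 higher and 5 lower. These 9 genes stayed past that smaller size under all 8 settings that kept the size, apart from EDEM1 with a pseudocount of 5. The filters and the failed accessions could not move them. Taking the highest accession alone turned the sign of XBP1 (0.20), SYVN1 (-0.14) and DERL3 (0.17), the 3 sign changes among 164 single-gene values. Values were taken as unmoved within 0.1 (log2) or, for counts, within 1.5 times, which held for 115 of 130 group values. That count includes settings that could not move a value.

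Counts of genes with a peak depend on the distance. For LNCaP LSD1 the 14 genes became 8 within 5 kb, 7 inside the interval and 2 within 1 kb of an end, and 7 with the upper part of the list by score (above its median) or 6 with its top 4460 peaks. For H3T6ph the 12 genes, counting DERL3, became 6 within 5 kb, 6 inside, 3 within 1 kb of an end and 5 with the upper part. For VCaP LSD1 the 17 genes became 10 inside, 6 within 1 kb of an end, and 8 both with the upper part and with the top 4460. Leaving out genes with a shared interval, an alternative chosen after seeing the data, kept each count within 1.5 times. Single libraries limit every difference, and depth is unknown for the ChIP samples.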

Other observations

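Chaperones outside the ER had mostly lower values too, where 52.9% of all protein-coding genes were lower, and whether they differ from the ER chaperones was not tested. Of 20 measured cytosolic heat shock chaperone genes 15 were lower after LSD1 siRNA (median log2 -0.15). Their summed level was 89.9% of control. The small heat shock protein genes went the other way, with HSPB8 at 6.45 and 11.7 FPKM (log2 0.77) and HSPB1 at 359 and 525 FPKM (log2 0.55). Of 11 mitochondrial chaperone and protease genes 10 were lower, with a median of -0.14 and TRAP1, the mitochondrial HSP90, at 58.8 and 47.9 FPKM (log2 -0.29). LONP1, the matrix protease gene, was the exception at 87.2 and 118 FPKM (log2 0.43).

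In the list of transport from the ER to the Golgi 14 of 24 genes were lower (58.3%, beside 52.9% of protein-coding genes), with a median of -0.04. LMAN1, a cargo receptor that carries glycoproteins out of the ER, fell past 1.5-fold, from 88.4 to 51.7 FPKM (log2 -0.76). KDELR3, a receptor that returns escaped chaperones to the ER, was at 5.99 and 8.04 FPKM (log2 0.37).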
